A study of Mus musculus with 4 samples.

Results

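The kinesin motor genes described here, mitotic and other, were all those whose symbol has the form Kif or Kifc followed by a number, and optionally a letter after a Kif number, taken from probe sets annotated to a single gene. The array held 103 such probe sets for 40 kinesin genes, of 18193 genes named in all. Of these 40 genes, 12 were listed as mitotic (Kif2c, Kif4, Kif11, Kif14, Kif15, Kif18a, Kif18b, Kif20a, Kif20b, Kif22, Kif23 and Kifc1) and the other 28 served as the comparison. That second set holds mostly transport motors but also a few with other tasks, such as the microtubule depolymerase Kif2a.

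Kinesins are motor proteins that use ATP to move along microtubules or to take microtubules apart. Some of them build and work the mitotic spindle and the cytokinetic bridge, and their transcripts accumulate in dividing cells late in the cell cycle, while others carry organelles, vesicles and protein complexes in cells that need not divide. In T cells the transport motors are known for moving cargo and helping position the centrosome towards the immune synapse, and the mitotic motors are known as part of the proliferation program that thymocytes largely shut down as they mature.

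The arrays measured RNA of CD4 single-positive thymocytes sorted from mice of B6 background. Both groups carried floxed Cul3 alleles (Cul3fl/fl), the gene of a cullin scaffold for ubiquitin ligases. The 2 LM arrays came from mice without CD4-Cre and the 2 KO arrays from mice with it, and the sort left out cells positive for CD25, the CD1d-PBS57 tetramer or the gamma delta T cell receptor. The CD4-Cre transgene acts from the double-positive thymocyte stage onwards. No arrays of mice with Cre and unfloxed Cul3 were analysed here, so an effect of Cre itself and one of losing Cul3 cannot be told apart. The labels give neither the age nor the number of the mice. They also do not say whether replicates were different animals, and the p-values therefore reflect array-to-array variation that could be purely technical.

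The brightest probe set of Cul3 itself read 5333 and 5724 in LM and 5380 and 5577 in KO cells (log2 difference -0.01 ± 0.09 SE, limma adjusted p = 0.994). The position of these probes relative to the floxed exons is not given in the sources used here, so the genotypes rest on the labels. Among the defining CD4 T cell markers with a named probe set, 7 of 7 were above background, with summed signals of 48050 and 49750 in LM and 49380 and 46430 in KO cells. Of the markers of other cell types, 4 of 6 for B cells, 4 of 9 for myeloid cells, 6 of 8 for stroma, 2 of 3 for erythroid cells and 3 of 4 for NK and gamma delta T cells did not exceed background on any array. Others did: Tyrobp of myeloid cells read 158 and 290 in LM and 192 and 252 in KO cells, and the erythroid gene Alas2 read 212 and 184 against 95.5 and 282. Cd79a, Csf1r, Fcer1g, Lyz2, Epcam and Zbtb16 also exceeded background on at least 2 arrays. Summed signals ran from 295 to 330 in LM and from 235 to 338 in KO cells for B cell markers, from 635 to 699 and from 562 to 746 for myeloid markers, and from 339 to 456 and from 391 to 404 for stromal markers. They ran from 262 to 296 and from 178 to 371 for erythroid markers. For NK and gamma delta T cell markers they ran from 208 to 318 and from 174 to 229. No gene of these lists was called, but of all genes tested only 0.142% were called lower and 0.133% higher. Markers of double-positive and immature thymocytes summed to 7022 and 7304 in LM cells and to 7853 and 7623 in KO cells, with none called and Ptcra not above background. One of them, Tdrd5, exceeded background only in KO cells (48.8 and 55.1 against 149 and 111), and of the other 7 tested 6 lay higher. Any part that such cells play in the values below was not tested.

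Short motifs near the start sites of the mitotic kinesins show what these genes share apart from their function. Genes expressed late in the cell cycle often carry a cell cycle homology region (CHR), which repressor and activator complexes of the DREAM and MuvB type contact, and CCAAT boxes bound by NF-Y. RefSeq windows (GRCm38.p6) from 250 bases before to 50 bases after the start were at hand for 32 of the 40 genes, 11 mitotic and 21 other. Both strands were searched for TTTGAA (a common CHR form), TTTAAA (another form) and CCAAT, and no matches overlapped in these windows. TTTGAA was present in 10 of the 11 mitotic windows and in 3 of the 21 others (Kif1a, Kif26b and Kif27), against 20.2% of the 27025 genes with a window. Within 30 bases of the start it was present in 8 of the 11 and in 1 of the 21, against 3.39% of all genes. The 30-base limit was chosen after values were seen, so this contrast is not independent of them. These 8 sites are shown with the match in capitals (TTTGAA, or TTCAAA where it lies on the opposite strand), each as 30 bases on the strand of its gene, because they are the common feature at or near the start:

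Kif11 (chr19:37376351-37376380, plus strand): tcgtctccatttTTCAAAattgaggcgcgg
Kif15 (chr9:122951050-122951079, plus strand): tggggcgccaaaTTCAAAtctgcggccatc
Kif22 (chr7:127042420-127042449, minus strand): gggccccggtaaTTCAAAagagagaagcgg
Kif18b (chr11:102925104-102925133, minus strand): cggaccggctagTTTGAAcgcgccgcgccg
Kif20b (chr19:34922353-34922382, plus strand): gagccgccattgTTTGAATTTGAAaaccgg
Kif23 (chr9:61946780-61946809, minus strand): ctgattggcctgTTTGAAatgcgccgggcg
Kif4 (chrX:100626072-100626101, plus strand): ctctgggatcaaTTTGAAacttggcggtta
Kifc1 (chr17:33890615-33890644, minus strand): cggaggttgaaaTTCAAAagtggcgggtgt

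Kif20b carries 2 matches side by side. In Kif11, Kif15 and Kif22 the match shown begins 19, 19 and 17 bases before the start, and in Kif18b, Kif20b, Kif23, Kif4 and Kifc1 at positions 4, 8, 3, 20 and 2 counted from the start as 1. The window of Kif14 holds TTTGAA 228 bases and TTTAAA 42 bases before the start, that of Kif2c holds them 103 and 234 bases before it, and that of Kif18a holds neither. TTTAAA was present in 2 of the 11 mitotic windows (Kif14 and Kif2c) and 0 of the 21 others, against 14.9% of all genes. CCAAT was present in 7 of the 11 mitotic windows and 8 of the 21 others, against 41.1% of all genes. The 120 bases before the start show the spacing in the motors Kif11 and Kif22 and, for contrast, in the transport motor Kif3b, with TTTGAA and CCAAT matches of either strand in capitals:

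Kif11 (chr19:37376262-37376381, plus strand): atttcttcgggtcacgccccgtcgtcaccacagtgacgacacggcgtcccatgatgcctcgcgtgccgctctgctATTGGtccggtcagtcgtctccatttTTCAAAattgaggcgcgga
Kif22 (chr7:127042421-127042540, minus strand): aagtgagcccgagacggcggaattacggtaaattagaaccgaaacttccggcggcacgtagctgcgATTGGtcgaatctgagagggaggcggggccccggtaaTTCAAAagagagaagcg
Kif3b (chr2:153291296-153291415, plus strand): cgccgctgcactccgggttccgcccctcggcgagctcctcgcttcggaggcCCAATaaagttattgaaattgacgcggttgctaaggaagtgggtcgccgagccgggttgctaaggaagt

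Kif11 and Kif22 each hold a CCAAT box on the opposite strand (ATTGG), beginning 45 and 54 bases before the start, upstream of the CHR-type match, and Kif3b holds a CCAAT box alone. The same search over genes that work with these motors found TTTGAA in 15 of 23 mitotic partner genes, 2 of 19 light chain and adaptor genes and 2 of 23 dynein and dynactin genes. A match is a description of these letters in this window, not a binding site.

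**Figure D1:**
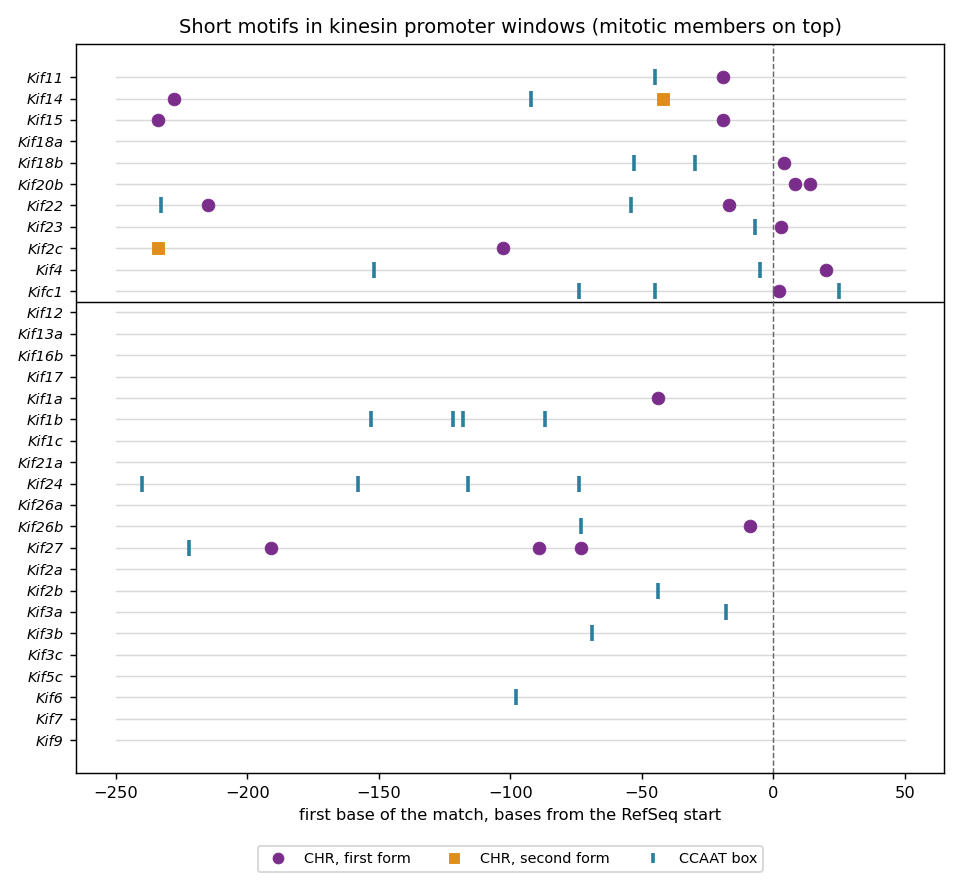
Position of the first base of each match to the CHR forms and the CCAAT box in RefSeq windows of kinesin genes, in bases from the start (dashed line), for 11 mitotic members above the solid line and 21 others below it. Genes with several starts have their windows overlaid. First-form CHR matches (circles) appear in 10 of 11 mitotic rows and 3 of 21 other rows.

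The main comparison asked whether the mitotic kinesins and the remaining kinesins differ between the genotypes. Background was set on each array from odour and pheromone receptor probe sets, on the normalized log2 scale. Of the 12 mitotic members 9 exceeded it, and all 9 did so on all 4 arrays, Kif4 only narrowly in KO cells. Each of the 9 was lower on the KO arrays, with a median log2 difference of -0.63 and a range from -1.25 to -0.05, and in 8 of them the LM and KO arrays did not overlap. Of the 28 others 17 were tested, 15 of them above background on all 4 arrays and none through 1 group alone. Of these 7 were lower and 10 higher, with a median of 0.10 and a range from -0.33 to 0.60, and 3 did not overlap with KO lower and 4 with KO higher. Over the 11255 genes tested the median was 0.00, and 18.3% did not overlap with KO lower and 19.1% with KO higher. In bulk RNA, fewer dividing cells and less RNA per dividing cell cannot be told apart.

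Only Kif11 passed the threshold of adjusted p below 0.05 in limma. It was 1 of 9 tested mitotic members, against 0.142% of all genes tested called lower and 0.133% called higher, and 0 of the 17 other kinesins were called. At an unadjusted p below 0.05 there were 5 mitotic members, all lower, and 0 others, against 4.17% of all genes lower and 4.23% higher. The median of the other kinesins changed sign without LM replicate 1 (-0.05), without KO replicate 2 (-0.01) and with the mean of a gene's probe sets (-0.03), so it has no stable direction. Leaving out KO replicate 2 moved the mitotic median to -0.76, and leaving out KO replicate 1 moved it to -0.51.

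**Figure D2:**
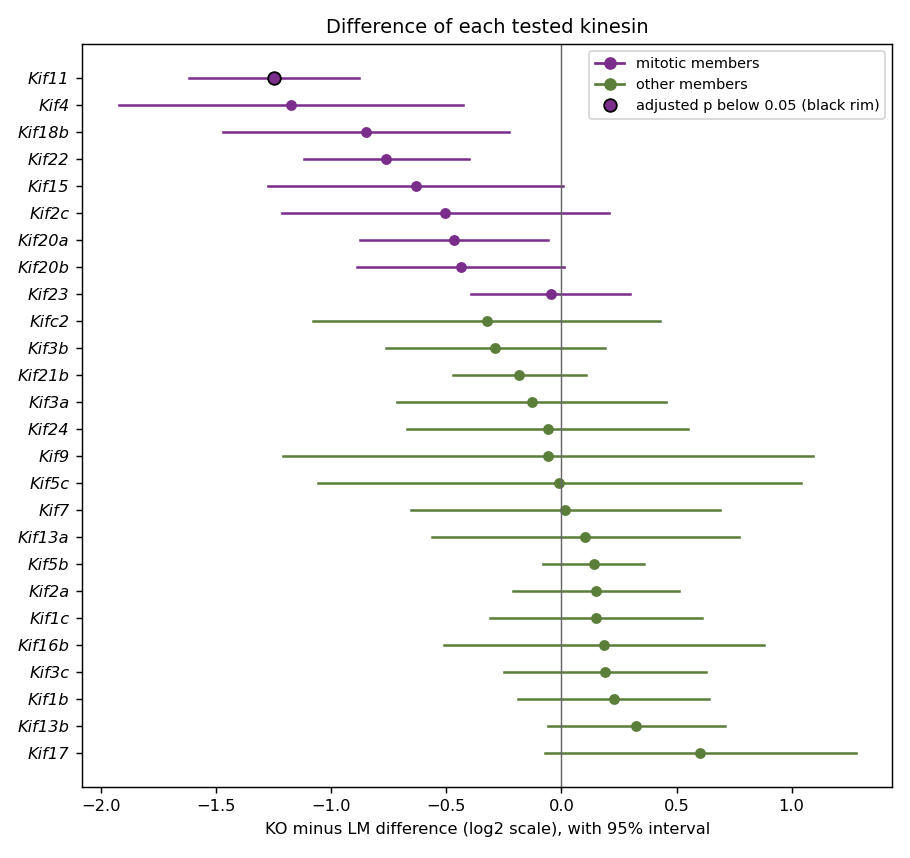
KO minus LM log2 difference of each tested kinesin with its 95% interval from limma, 9 mitotic members on top and 17 others below. All 9 mitotic points lie left of 0, from -1.25 to -0.05, and the others lie from -0.33 to 0.60, with Kif11 the only call.

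Among the motors that set up the spindle, Kif11 had the largest difference. It is the tetrameric motor that slides antiparallel microtubules apart and keeps the spindle bipolar. Its brightest probe set read 1781 and 2111 in LM and 819 and 794 in KO cells. Both KO arrays were below both LM arrays, and Kif11 fell to 42.1% of the LM level (log2 difference -1.25 ± 0.17 SE, limma adjusted p = 0.00840, 95% interval 32.6% to 54.4%). The call was lost without the filter on dim genes (adjusted p = 0.0799) and without the intensity trend in eBayes (adjusted p = 0.292). Kif15, a motor that can back up Kif11 in holding the poles apart, read 256 and 258 in LM and 145 and 185 in KO cells. The groups did not overlap, but the difference of -0.63 ± 0.29 did not pass (adjusted p = 0.600). Kif2c, a depolymerase that corrects faulty kinetochore attachments, read 244 and 205 against 121 and 201. KO replicate 2 lay just below the lower LM array, so the groups barely separated, and the difference was -0.50 ± 0.33 (adjusted p = 0.770), or -0.80 with KO replicate 2 left out and -0.21 with KO replicate 1 left out.

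The chromokinesins Kif22 and Kif4, which bind chromosome arms, come next, followed by Kif18b of another family. Kif22 pushes chromosomes towards the spindle equator and read 2042 and 2003 in LM and 1330 and 1059 in KO cells. Both KO arrays were lower, at 59.0% of the LM level (-0.76 ± 0.17, limma adjusted p = 0.112). Median centring in place of quantile normalization brought it past the threshold (-0.81, adjusted p = 0.0450). That setting also left the median of all genes tested at -0.046 and called 81 genes in all. The difference of Kif22 was -0.61 without KO replicate 2 and -0.92 without KO replicate 1. Kif4 acts in chromosome condensation and in limiting the length of midzone microtubules. It read 278 and 196 in LM and 98.2 and 98.3 in KO cells. On the normalized log2 scale its KO levels of 6.85 and 6.75 were only a little above the backgrounds of 6.84 and 6.55. Its difference of -1.18 ± 0.34 was close in size to that of Kif11 but had a larger standard error and did not pass (adjusted p = 0.301). Kif18b, a motor that shortens astral microtubules, read 283 and 324 against 151 and 180. Its groups did not overlap, with a difference of -0.85 ± 0.29 (adjusted p = 0.394).

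Motors of the kinesin-6 family act at the midzone and in cytokinesis. Kif20a, one of them, which carries the Aurora B complex to the midzone, read 927 and 862 in LM and 650 and 629 in KO cells. It did not overlap between groups and differed by -0.47 ± 0.19 (limma adjusted p = 0.508). Kif20b, which acts in abscission, read 884 and 677 against 566 and 567. Here LM replicate 1 stood apart from the other arrays, and the difference was -0.44 ± 0.21 (adjusted p = 0.613), or -0.26 without LM replicate 1.

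Kif23, the motor of the centralspindlin complex with Racgap1, read 1618 and 1874 in LM and 1577 and 1788 in KO cells. Its groups overlapped, and the difference of -0.05 ± 0.16 (limma adjusted p = 0.974) came with a 95% interval of 76.2% to 123% of the LM level. The interval of Kif11 ended at 54.4%, below the lower end of that of Kif23. Their difference was not tested. The direction of Kif23 turned without LM replicate 2 (0.05), without KO replicate 1 (0.05) and with probe set means (0.09). That mean includes a set at 0.35 that did not exceed background on any array. The start window of Kif23 shown above holds the letters TTTGAA, as do those of Kif4 and Kif18b. Any relation of these letters to the differences was not tested.

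**Figure D3:**
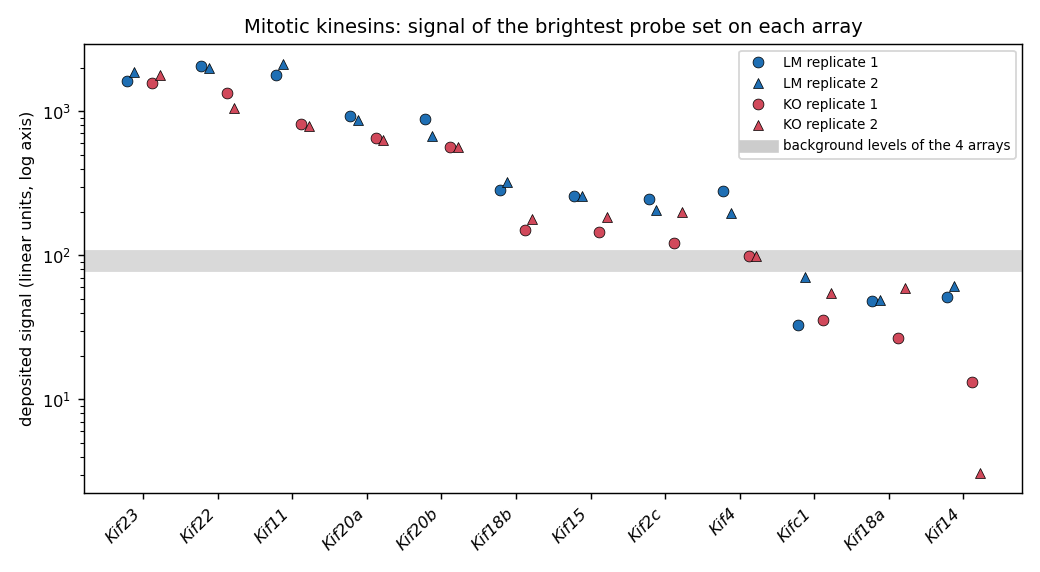
Deposited signal of the brightest probe set of each of the 12 mitotic kinesins on the 4 arrays (log axis), with circles and triangles for replicates 1 and 2 and a grey band over the background levels of the arrays, which were set on the normalized scale and turned back into signals. The KO points lie below both LM points for 8 of the 9 tested genes, whereas those of Kif23 overlap. The KO points of Kif4 lie inside the band. Heights compare arrays within a gene, not genes.

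The remaining 3 mitotic members did not exceed background on any array. Kif14, a cytokinesis motor of the midbody, read 51.1 and 60.9 in LM and 13.2 and 3.10 in KO cells. Kif18a, which dampens chromosome movements at metaphase, read 48.2 and 49.3 against 26.6 and 59.6. Kifc1, a minus-end motor that focuses spindle poles, read 32.7 and 70.4 against 35.4 and 55.0. None of these gives a measured fold. The Kifc1 probe set has the suffix of sets that match several transcripts, and the annotation also lists the close copy Kifc5b on another probe set, so its signal may be shared.

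Among the other kinesins, those with the 8 smallest p-values and the 6 highest signals were examined singly, 10 genes in all. Kif5b, the ubiquitous heavy chain of conventional kinesin, which moves mitochondria and lysosomes, read 5101 and 4843 in LM and 5571 and 5380 in KO cells. The KO arrays were slightly higher without overlap, by 0.14 ± 0.10 (limma adjusted p = 0.802). The 95% interval ran from 94.7% to 128% of the LM level. The difference was 0.22 when LM replicate 1 was left out, 0.06 when LM replicate 2 was, and 0.07 with probe set means. Kif21b, a motor that restrains microtubule growth and is known from centrosome polarization in T cells, read 2602 and 2765 against 2228 and 2480, a difference of -0.18 ± 0.13 (adjusted p = 0.808, 72.1% to 108%), or -0.10 when KO replicate 1 was left out. Kif2a, a depolymerase related to Kif2c that also works at spindle poles, read 1832 and 1441 against 1802 and 1798. Its groups overlapped, at 0.15 ± 0.17 (adjusted p = 0.883), and it stood at 0.33 when LM replicate 1 was left out, -0.03 when LM replicate 2 was, and -0.02 with probe set means.

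The kinesin-3 motors Kif1b, Kif1c and Kif13b carry vesicles and organelles. Kif13b read 859 and 823 in LM and 1045 and 1059 in KO cells, without overlap, a difference of 0.33 ± 0.18 (limma adjusted p = 0.699). Kif1b read 667 and 722 against 808 and 809 and differed by 0.23 ± 0.19 (adjusted p = 0.837). Kif1c read 699 and 914 against 781 and 986, with overlap, and differed by 0.15 ± 0.21 (adjusted p = 0.918). All 5 tested members of the kinesin-3 family outside the mitotic list, the other 2 being Kif13a and Kif16b, had differences above 0 on the brightest probe set, from 0.10 to 0.33. None passed, and all of them but Kif13b had another usable probe set below 0, as low as -0.24 in Kif1b, -0.10 in Kif1c, -0.39 in Kif16b and -0.86 in Kif13a. With probe set means Kif1b stood at 0.018. Kif1c turned to -0.05 without LM replicate 1 and to -0.01 without KO replicate 2, but stood at 0.55 with probe set means. That mean includes a set above background on only 1 array, which read 12.8 and 14.5 in LM and 93.4 and 117 in KO cells.

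The kinesin-2 motors Kif3b, Kif3c and Kif17 carry cargo along axonemes and dendrites. Kif3b read 581 and 640 in LM and 434 and 564 in KO cells, without overlap, at -0.29 ± 0.22 (limma adjusted p = 0.817). Leaving out single arrays moved it between -0.46 (KO replicate 2) and -0.11 (KO replicate 1), and probe set means gave -0.17. Kif3c read 626 and 714 against 822 and 700, with overlap, at 0.19 ± 0.20 (adjusted p = 0.880), or 0.07 with KO replicate 1 and 0.08 with LM replicate 1 left out, and 0.31 with KO replicate 2 and 0.30 with LM replicate 2 left out. Kif17 read 179 and 122 against 226 and 254, without overlap. It had the largest difference of the other kinesins that were tested, 0.60 ± 0.31 (adjusted p = 0.668). Another usable probe set of Kif17 stood at -1.33. With probe set means Kif3c stood at -0.23 and Kif17 at -0.18. Kifc2, a minus-end motor known from neurons, read 182 and 144 against 141 and 123, just without overlap, at -0.33 ± 0.35 (adjusted p = 0.880), or -0.20 when KO replicate 2 was left out.

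The other 7 tested members (Kif3a, Kif5c, Kif7, Kif9, Kif13a, Kif16b and Kif24) overlapped between the groups, and their differences ran from -0.13 to 0.18. Kif5c and Kif9 exceeded background on only 1 array of each group. The 11 members not tested were Kif1a, Kif2b, Kif5a, Kif6, Kif12, Kif21a, Kif26a, Kif26b, Kif27, Kif28 and Kifc3, with a highest signal of 93.1 on any array. Several of these are known mainly from neurons, testis or ciliated cells.

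Several kinesins had more than 1 probe set above background, which gives a second look within the same arrays, though not a replicate. Of the 18 mitotic probe sets 17 were lower on the KO arrays, with a median of -0.68, against 21 lower and 31 higher of 52 probe sets of the other kinesins, with a median of 0.04. All 3 probe sets of Kif11 were lower, by -1.25, -0.90 and -0.72, and all 3 of Kif22, by -0.76, -0.87 and -1.05. The Kif22 set chosen as brightest carries the suffix of sets that may cross-hybridize, and the set without any such suffix read 497 and 545 in LM and 220 and 347 in KO cells. Both usable probe sets of Kif23 were close to 0, at -0.05 and -0.02. All 3 of Kif20b were lower, from -0.77 to -0.29, whereas the 3 of Kif2c ran from -0.50 to 0.12.

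Probe sets of both signs were more common among the other kinesins, whose differences were mostly small. The usable sets of Kif21b, Kif24 and Kifc2 were all lower on the KO arrays. The 6 probe sets of Kif5b lay between 0.01 and 0.14, and the 4 of Kif13b between 0.15 and 0.73. Kif3c had 1 probe set at 0.19 and 1 at -0.66, the latter reading 756 and 892 in LM and 474 and 552 in KO cells. Those of Kif17 ran from -1.33 to 0.60, of Kif13a from -0.86 to 0.76 and of Kif3a from -0.13 to 0.65. Kif1b, Kif1c, Kif2a, Kif3b and Kif16b also had probe sets of both signs, from -0.57 to 0.15 in Kif2a and from -0.40 to 0.19 in Kif3b. A direction read from a single probe set of these 9 genes, or of Kif2c, is uncertain.

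**Figure D4:**
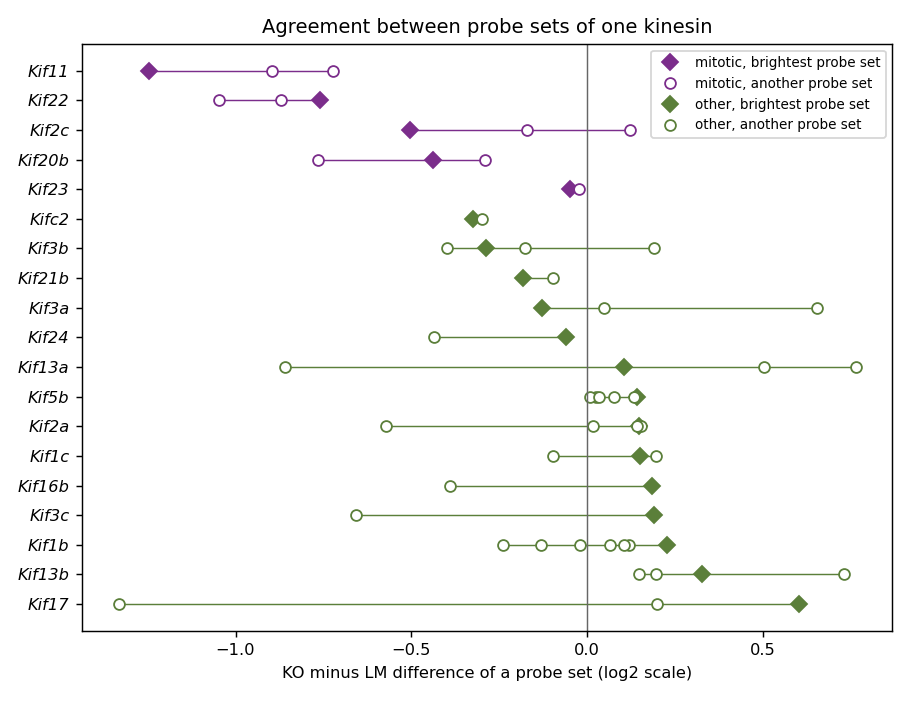
KO minus LM log2 difference of every probe set above background on at least 2 arrays, for kinesins with more than 1 such set. Diamonds mark the brightest set used in the main comparison. The sets of Kif11 and Kif22 all lie below -0.7, those of Kif23 near 0, and those of Kif2c and of 9 other kinesins (Kif1b, Kif1c, Kif2a, Kif3a, Kif3b, Kif3c, Kif13a, Kif16b and Kif17) on both sides of 0.

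Most genes that act with the mitotic motors were lower in the same arrays. Cenpe, a kinetochore kinesin whose symbol lacks the Kif form, read 706 and 648 in LM and 231 and 260 in KO cells. It fell by 1.41 ± 0.22 on the log2 scale (limma adjusted p = 0.0213), and the call was lost without the filter on dim genes (adjusted p = 0.217), without the eBayes trend (0.233) and with probe set means (-0.90, adjusted p = 0.196). It was the only call among 24 tested mitotic partners, against 0.142% of all genes called lower. Of these 24, 22 were lower, with a median of -0.80. In 19 the groups did not overlap with KO lower, against 18.3% of all genes, and 19 were lower at an unadjusted p below 0.05, against 4.17%. Spc25, a kinetochore subunit, differed by -1.03 ± 0.21 (adjusted p = 0.0912) and Cep55, a midbody organizer, by -1.30 ± 0.27 (adjusted p = 0.0990), and both passed with median centring. Spc25 stood at -0.67 with probe set means. Of 2 further genes, picked after their values were seen, Mki67, a marker of cycling cells, fell to 55.1% and Top2a, a DNA topoisomerase, to 36.8% of the LM level (adjusted p = 0.00285 and 0.00468). The mitotic list was chosen with such results known, so its direction is not independent of them.

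Genes that act with the transport motors gave no calls, but of all genes tested only 0.142% were called lower and 0.133% higher. At an unadjusted limma p below 0.05 the shares of all genes were 4.17% lower and 4.23% higher. Of 17 tested light chains and cargo adaptors 6 were lower and 11 higher, with a median of 0.11 and 0 at an unadjusted p below 0.05. Kinesin light chain Klc1 differed by 0.01 ± 0.22 (limma adjusted p = 0.996) and Kifap3, the kinesin-2 accessory subunit, by 0.27 ± 0.23 (adjusted p = 0.836), or 0.49 when LM replicate 1 was left out, 0.05 when LM replicate 2 was and 0.16 with probe set means. The smallest p-values were those of the microtubule-bound kinesin-1 recruiter Map7 (-0.45, adjusted p = 0.629), the adaptor Fez2 (0.34, adjusted p = 0.686) and the microtubule stabilizer Map4 (-0.32, adjusted p = 0.761). Leaving out single arrays moved Map4 between -0.57 (KO replicate 2) and -0.06 (KO replicate 1), with -0.17 when LM replicate 1 was left out. Map7 stood at -0.27 when KO replicate 2 was left out and at -0.89 with probe set means, and Map4 at -0.21 with probe set means. Of 23 tested subunits and regulators of cytoplasmic dynein and dynactin, the motor that runs to microtubule minus ends, 9 were lower and 14 higher, with a median of 0.03 and 0 at an unadjusted p below 0.05. Its heavy chain Dync1h1 differed by 0.01 ± 0.15 (adjusted p = 0.996), light chain Dynll1 by 0.23, Dctn4 by 0.18 and Dctn6 by 0.17. Dynll1 ran from 0.07 (LM replicate 1 left out) to 0.39 (LM replicate 2 left out) and stood at 0.12 when KO replicate 2 was left out. Dctn6 stood at 0.10 when LM replicate 2 was left out, and Dctn4 at 0.01 with probe set means. Klc1 and Dync1h1 changed sign with median centring (-0.04 each) and without single arrays.

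Regulators of cell cycle transcription were mixed. Of 20 tested, 11 were lower and 9 higher, and the median was -0.03. Calls numbered 0, against 0.142% of all genes tested called lower and 0.133% called higher. At an unadjusted limma p below 0.05 there were 5 lower and 1 higher, against 4.17% of all genes lower and 4.23% higher. The brightest probe set of Foxm1, an activator of late cell cycle genes, carries the suffix of sets that may cross-hybridize. Foxm1 read 451 and 361 in LM and 223 and 63.3 in KO cells. Its groups did not overlap, but KO replicate 2 did not exceed background, so only 1 of the 2 KO arrays measured it, and the size of the difference of -1.65 ± 0.45 (limma adjusted p = 0.245) rests on a value below background. With KO replicate 2 left out it was -0.80, and probe set means gave -0.86. It passed with median centring and with LM replicate 2 or KO replicate 1 left out, fits that all include the KO array below background. E2f2 differed by -0.68 ± 0.20 (adjusted p = 0.308) and E2f8 by -0.97 ± 0.32 (adjusted p = 0.393), both without overlap. E2f8 stood at -0.61 with LM replicate 1 and at -0.63 with KO replicate 1 left out.

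**Figure D5:**
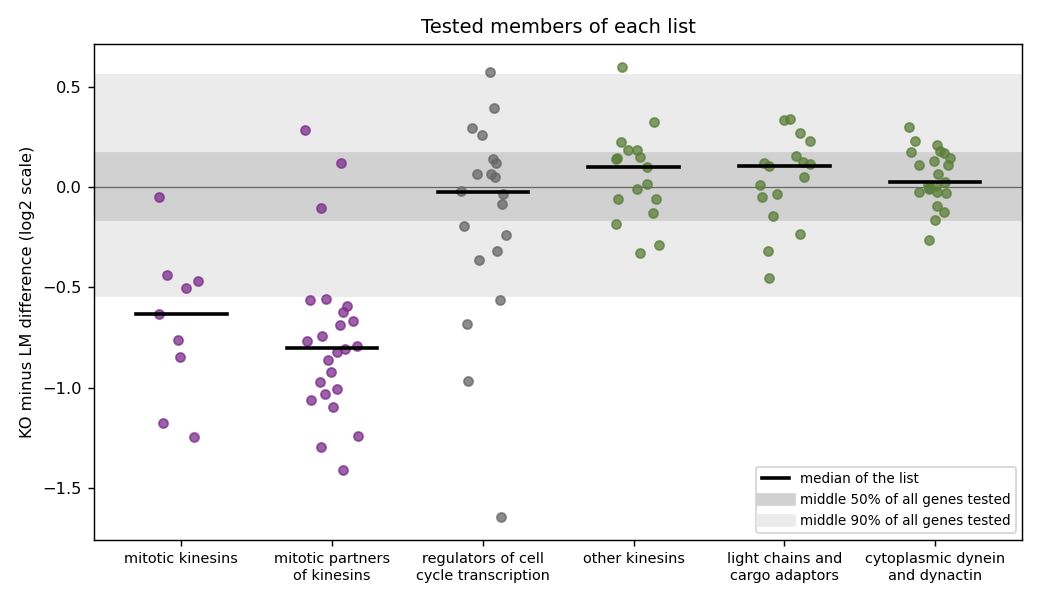
KO minus LM log2 differences of the tested members of 6 gene lists, with the list median as a bar and the middle 50% and 90% of all 11255 genes tested as grey bands. Medians are -0.63 for mitotic kinesins and -0.80 for their mitotic partners, against 0.10, 0.11 and 0.03 for other kinesins, light chains and adaptors, and dynein and dynactin.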

How the data were processed

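The values are intensities on a linear scale, as deposited by the authors, between 0.1 and 43129. On each array they are scaled to a common mean of 500.0 after trimming 2% at each end. The summarization program is not given in the sources used here. After removing 64 control probe sets, intensities were taken as log2(signal + 16). Array medians ran from 7.28 to 7.44, so quantile normalization was applied. The brightest single-gene probe set stood for each gene. Receptors for odours and pheromones served as background: on each array it was the 95th percentile of their 80 probe sets (log2 6.55 to 6.94). Genes above it on at least 2 arrays were tested. Signals in the text are as deposited, and differences are KO minus LM on the normalized log2 scale, which understates changes of dim genes.

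Differences were fitted with limma 3.58.1 (R 4.3.3; lmFit, eBayes with trend) over 11255 genes, with a single genotype coefficient. Tests were two-sided, with p-values Benjamini-Hochberg adjusted over all these genes. The fit had 2 residual degrees of freedom and borrowed 9.96, and the code was tested on simulated data. All 40 symbols matched RefSeq by gene ID. Members and lists were chosen with earlier results of these data known. Genes described singly were the tested mitotic members, the other kinesins named by p and signal as stated, and for each companion list the 3 smallest p-values plus Cenpe, Klc1, Kifap3, Dync1h1 and Foxm1. Mki67, Top2a, the single probe sets, the promoters shown and the 30-base limit were chosen after values were seen. Alternatives changed the filter, normalization, pseudocount, eBayes options, probe set choice, threshold and arrays used. Python 3.11.15, pandas 2.3.3 and matplotlib 3.10.9 made the tables and plots.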

Additional observations from a re-analysis of the deposited data

How the results depend on the processing

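Only 4 arrays limit the precision, so differences below the median standard error of 0.22 (log2) are not resolved. Larger ones need not be resolved either. Kif13b, at 0.33, had a limma interval from -0.06 to 0.71, which includes no difference. Fits without 1 array assume that the lone array varies like the other group. Against 1 mitotic kinesin and 31 genes called, the counts were 0 and 0 without the filter on dim genes (1247 genes at an unadjusted p below 0.05) and 0 and 0 without the eBayes trend (922 genes), in limma. They were 2 and 81 with median centring, 1 probe set and 50 probe sets with probe sets fitted separately, and 1 and 49 at an adjusted p below 0.10. Median centring left the median of all genes tested at -0.046, against 0.0018 in the main fit. Without single arrays 1 mitotic kinesin, Kif11, was called each time, beside 40 to 97 genes in all. The other kinesins gave 0 calls in all 16 alternatives. No cause of these shifts was tested.

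Signs turned with probe set means for Kif23 (0.092), Kif17 (-0.18), Kif3c (-0.23) and Kif2a (-0.022), and with median centring for Klc1 (-0.043) and Dync1h1 (-0.037). Leaving out single arrays gave -0.147 to 0.052 for Kif23, -0.035 to 0.332 for Kif2a, -0.053 to 0.355 for Kif1c, -0.19 to 0.213 for Klc1 and -0.14 to 0.157 for Dync1h1. Over all genes tested, same-numbered arrays did not deviate together (correlation of deviations -0.02). The labels do not say whether they were paired, and this single value cannot show that they were not. With the replicate block 43 genes were called, Kif11 among them (-1.25, adjusted p = 0.00373), and 0 other kinesins.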
